A study of Mus musculus with 3 samples.

Results

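The genes described here are 44 mouse genes for cohesin, the kinetochore and the spindle checkpoint, followed in blastocysts of young females, of aging females, and of aging females after suppression of CXCL5-CXCR2 signaling in culture (called suppressed aging). The rule takes genes by name and uses no measured value: every non-control probe whose RefSeq accession belongs to 1 of the 44 genes, in the RefSeq gene table of GRCm38.p6, was taken. All 44 genes were on the array, with 71 of the 56591 probes used, among 23458 genes that could be named. There were 21 members with 1 probe, 19 with 2 probes and 4 with 3 probes. By role they form 8 groups. The 19 cohesin genes cover the mitotic ring, the meiotic subunits, the loading, release and acetylation factors, and the protection and cleavage factors. The other 25 genes belong to the checkpoint, the mitotic kinases, the kinetochore and the spindle.

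Cohesin is a ring built of Smc1a, Smc3, Rad21 and a Stag protein, and it encloses both sister chromatids from S phase until anaphase. Kinetochores assemble on centromeres and bind microtubules, and a kinetochore without microtubules recruits the Bub and Mad proteins, which keep Cdc20 from activating the anaphase-promoting complex. When all chromosomes are attached, Cdc20 is released, securin (Pttg1) is degraded and separase (Espl1) cleaves the ring. In oocytes, rings with the meiotic subunits Smc1b, Rec8 and Stag3 hold chromosomes through the long arrest before ovulation, and weakened cohesion in oocytes is a known correlate of maternal age. Chromosome segregation errors also occur in cleavage stage embryos.

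All embryos came from superovulated ICR females, were collected as zygotes 18 h after hCG and were cultured in KSOM medium for 96 h. The mothers of young embryos were 3 to 6 weeks old, and those of aging and suppressed aging embryos were 43 to 53 weeks old. Only the suppressed aging embryos were cultured with a neutralizing antibody against CXCL5 (10 μg/ml) together with an antagonist of CXCR2 (10 nM), which block a chemokine and its receptor. RNA of 30 pooled blastocysts per group was read on 1 Agilent array with 1 dye (Cy3), and all 3 arrays were on 1 slide. There were no replicates, so no test was possible, no P value is given, and precision is limited by this number of arrays. The pairs of arrays are always given in the same order: aging against young first, suppressed aging against aging second, and suppressed aging against young last.

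Levels are log2 intensities minus the 75th percentile of the same array, whose intensity was 144.9 (young), 154.5 (aging) or 122.3 (suppressed aging). A level can be compared for 1 probe between arrays, but not between probes of different genes. Differences are log2 differences of levels, and a difference over 1 in size is called over 2-fold. The scanner software called 56.4% to 58.7% of probes well above background. Where a probe was above background on only 1 array of a pair, the difference is a bound ("at least") taken against the detection limit of the other array, which was a level of -4.20 (young), -4.32 (aging) or -3.93 (suppressed aging). Probes that were printed 5 or more times on an array had a median SD between spots of 0.045 to 0.053, which covers error within an array and not between embryos. Each member probe was printed on 1 spot. In pooled embryos, fewer cells of a type and less RNA per cell cannot be told apart. All 8 trophectoderm and all 8 inner cell mass markers were above background on all 3 arrays. Their summed linear levels were 504, 382 and 449 for trophectoderm and 1030, 1240 and 1150 for inner cell mass on the young, aging and suppressed aging arrays. The inner cell mass sum is mostly the Nanog probe (9.88, 10.14 and 10.03), and other markers of that list went both ways in aging against young, with Sox2 at 1.37, Pdgfra at 1.28 and Sox17 at -1.53. Of 12 oocyte markers, 3 were above background on all 3 arrays and 5 on none (Zp1, Mos, Zar1, Oosp1 and Nobox), with summed levels of 1.52, 2.8 and 1.89. Of 10 cumulus and granulosa markers, 5 were below background on all 3 arrays (Has2, Ptx3, Tnfaip6, Fshr and Inhba) and 5 were above it on all 3. Of the latter, Foxl2 read 8.66, 8.54 and 8.77 and made up nearly all of the summed levels of 406, 375 and 439, and Amhr2 read -0.89, 0.18 and -0.47. The part of these markers in the results was not tested.

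Many genes that act late in the cell cycle carry a CHR element and CCAAT boxes near their start site, and promoters of 5 members are shown to let a reader compare members that have this pair with members that lack it. The promoters are from RefSeq on GRCm38.p6 and run from 250 bases before the start to 50 bases after it. RefSeq promoters were at hand for 35 of the 44 members, in 38 windows. Both strands were searched for the CHR core (TTTGAA, or TTCAAA on the other strand) and the CCAAT box (CCAAT or ATTGG), matches are in capitals, and no match overlaps another in the promoters shown. Cdc20 (chr4:118437294-118437593, minus strand), Plk1 (chr7:122159185-122159484, plus strand) and Aurka (chr2:172370521-172370820, minus strand) hold both motifs. Aurkc (chr7:6995135-6995434, plus strand) and Smc1b (chr15:85131908-85132207, minus strand), described below for their differences between arrays, hold a CCAAT match and no CHR core.
Cdc20: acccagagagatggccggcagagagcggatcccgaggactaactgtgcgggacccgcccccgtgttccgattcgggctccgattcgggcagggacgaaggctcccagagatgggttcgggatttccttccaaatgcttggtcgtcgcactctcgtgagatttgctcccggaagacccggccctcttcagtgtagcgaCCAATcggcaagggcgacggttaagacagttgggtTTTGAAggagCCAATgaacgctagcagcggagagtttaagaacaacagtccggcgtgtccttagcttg
Plk1: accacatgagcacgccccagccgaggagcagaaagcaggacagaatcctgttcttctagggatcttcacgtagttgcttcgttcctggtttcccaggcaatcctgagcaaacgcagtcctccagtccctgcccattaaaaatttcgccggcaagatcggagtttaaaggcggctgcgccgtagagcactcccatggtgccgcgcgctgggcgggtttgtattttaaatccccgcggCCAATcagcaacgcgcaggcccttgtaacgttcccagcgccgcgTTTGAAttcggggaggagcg
Aurka: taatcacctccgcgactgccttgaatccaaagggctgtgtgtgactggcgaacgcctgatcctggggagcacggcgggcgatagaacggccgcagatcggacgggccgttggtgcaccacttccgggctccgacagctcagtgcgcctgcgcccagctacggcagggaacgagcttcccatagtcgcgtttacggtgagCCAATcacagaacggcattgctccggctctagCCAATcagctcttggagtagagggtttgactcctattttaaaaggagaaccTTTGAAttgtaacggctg
Aurkc: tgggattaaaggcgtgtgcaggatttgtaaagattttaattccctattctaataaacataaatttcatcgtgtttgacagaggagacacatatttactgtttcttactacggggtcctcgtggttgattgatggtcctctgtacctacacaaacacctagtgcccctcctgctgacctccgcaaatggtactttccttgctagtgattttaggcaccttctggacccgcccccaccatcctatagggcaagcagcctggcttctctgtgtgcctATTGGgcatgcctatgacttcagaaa
Smc1b: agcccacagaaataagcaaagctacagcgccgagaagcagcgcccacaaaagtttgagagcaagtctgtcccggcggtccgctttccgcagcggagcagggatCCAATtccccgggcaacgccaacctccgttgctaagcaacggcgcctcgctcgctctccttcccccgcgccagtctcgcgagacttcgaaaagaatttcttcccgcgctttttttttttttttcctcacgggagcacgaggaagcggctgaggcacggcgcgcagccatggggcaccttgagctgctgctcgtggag
In Cdc20, a CHR core 18 bases before the start lies between CCAAT boxes 53 and 8 bases before it. Plk1 has the CCAAT box 14 bases before and the CHR core 30 bases after the start, and Aurka has CCAAT boxes 51 and 19 bases before and a CHR core 32 bases after it. The CCAAT match of Smc1b lies 147 bases before the start, and that of Aurkc lies 24 bases after it, on the other strand.

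Over all members, the CHR core was found in 16 of 38 windows (42.1%), against 17.9% of the 32851 promoters in the table. The CCAAT box was found in 28 windows (73.7%, against 37.4%), and both motifs were found in 15 (39.5%, against 6.95%). The CHR core was in 3 of 15 windows of cohesin genes (20.0%) and in 13 of 23 windows of the checkpoint, kinase, kinetochore and spindle genes (56.5%). CCAAT boxes were in 12 of 15 (80.0%) and 16 of 23 (69.6%) windows of these sets. A match is a description of letters, and these arrays do not measure binding to it.

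Nearly all of the genes were measured on every array, and most were within 2-fold between the arrays. The brightest probe of 42 of the 44 members was above background on all 3 arrays, against 58.9% of all named genes, and 43 members could be compared in each pair of arrays. The exceptions were both meiotic cohesin genes: Rad21l was below background on all 3 arrays, and Smc1b was below it on the young array and passed only through the others. In aging against young blastocysts, 5 of 43 members (11.6%) were over 2-fold apart, against 19.0% of all named genes. Pds5b and Aurkc were higher in aging blastocysts (9.86% of all named genes were over 2-fold higher), and Nipbl, Esco1 and Cenpb were lower (9.19%). After suppression, 4 of 43 members (9.3%) were over 2-fold from aging blastocysts, against 17.3% of all genes. Smc1b and Wapl were higher (background 8.77%) and Stag2 and Sgo1 were lower (8.5%). Between suppressed aging and young blastocysts, again 4 of 43 members (9.3%) were over 2-fold apart, against 16.3% of all genes, with Smc1b, Pds5b and Rec8 higher in the suppressed group (background 8.67%) and Cenpb lower (7.64%). Over 5-fold there was no member in aging against young (2.59% of all genes), and Smc1b was the 1 member in the second pair (2.29% of all genes, 1.35% higher) and in the last (2.43%, 1.38% higher).

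**Figure D1:**
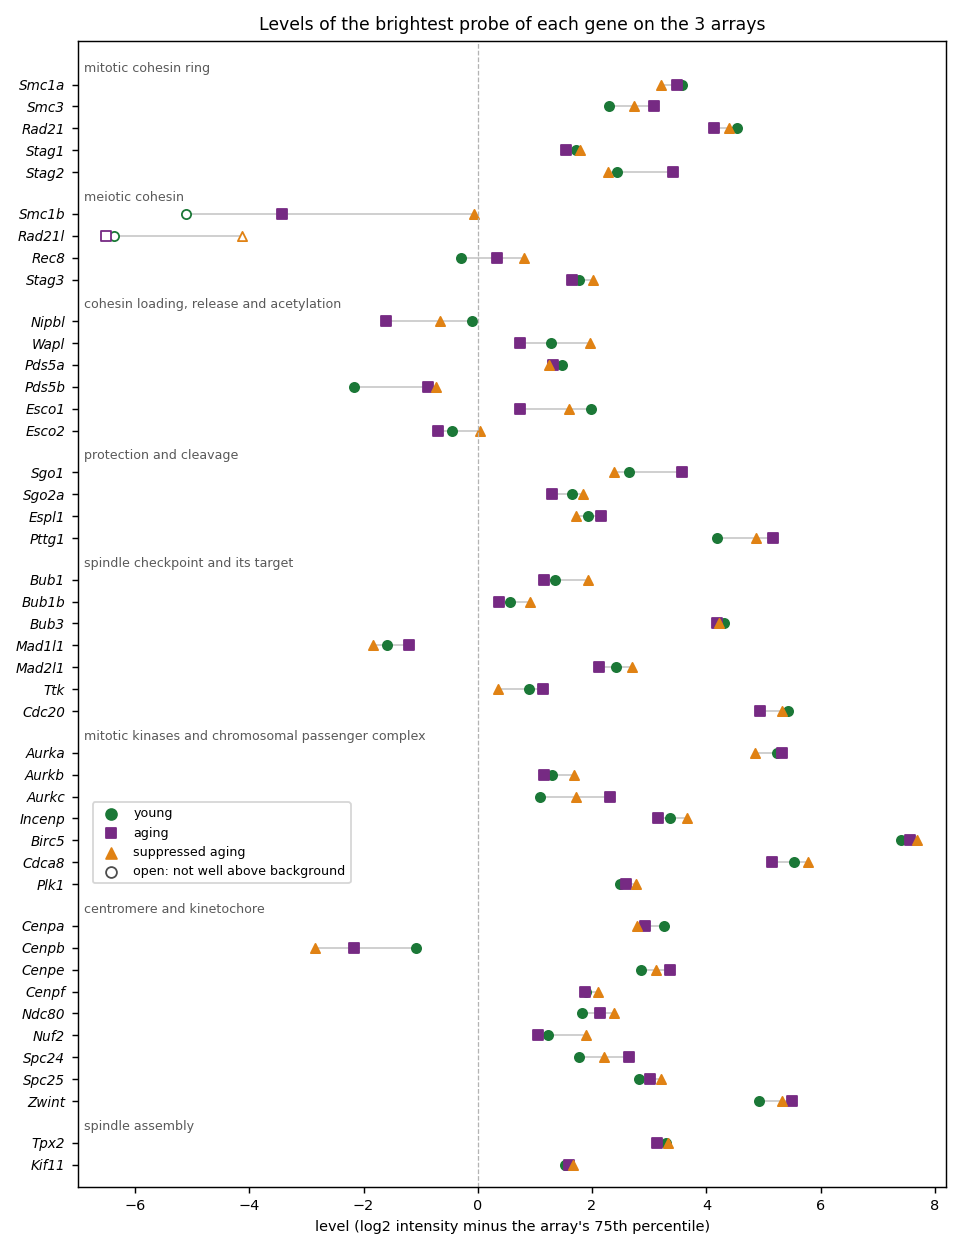
Level of the brightest probe of each of the 44 genes on the young (circle), aging (square) and suppressed aging (triangle) array, as log2 intensity minus the array's 75th percentile, grouped by role. Each point is 1 array, open points are not well above background, and levels of different genes should not be compared. The 3 points of most genes lie close together, and those of Smc1b lie widest apart, from -5.11 to -0.07.

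The share of genes over 2-fold apart depended on signal. Over all named genes, the share over 2-fold apart between aging and young arrays was 32.3% where the mean level was below -3, and 2.59% where it was above 5. For suppressed aging it went from 32.0% to 1.14% against aging and from 26.7% to 2.38% against young, with a peak of 28.3% between -3 and -2 in the last pair. Members sat on the bright side, with a mean level above 0 in 37 of 44. Among genes with such a mean level, 2 of 37 members (5.41%) were over 2-fold apart in aging against young (all genes 9.48%), 3 (8.11%) in suppressed aging against aging (7.64%) and 1 (2.7%) in suppressed aging against young (8.49%). The members' share therefore lay below that of all genes in the first and last pair and near it in the second, at counts of 1 to 3 genes.

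**Figure D2:**
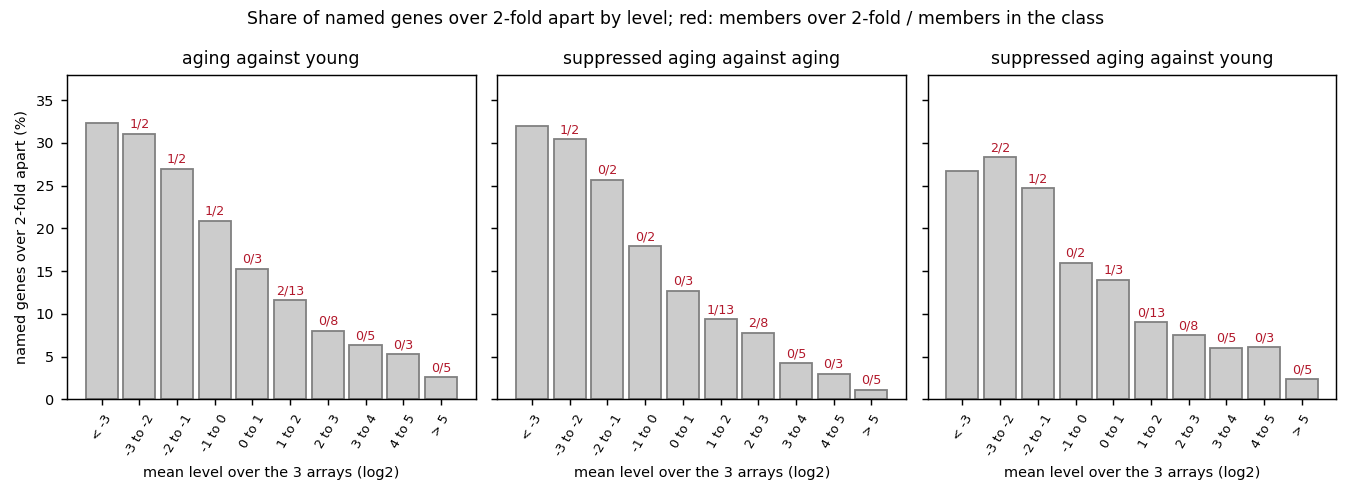
Share of all named genes over 2-fold apart (gray bars, in percent) in classes of mean level over the 3 arrays (log2), for each pair of arrays. Red numbers give members over 2-fold out of members in the class, and the bars fall from 32.3% in the dimmest to 2.59% in the brightest class of aging against young.

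The median difference over the 43 members was -0.09 in aging against young (all named genes 0.03), 0.20 in suppressed aging against aging (-0.00) and 0.24 in suppressed aging against young (0.03). By sign, 20 members were higher and 23 lower in aging than in young blastocysts, so that 46.5% were higher against 51.9% of all genes. After suppression 27 members were higher and 16 lower than in aging blastocysts (62.8% higher, against 49.7%), and 28 were higher and 15 lower than in young blastocysts (65.1%, against 52.4%). The pairs share arrays, so these counts are not independent of each other. In any of the 3 pairs, 10 of 44 members were over 2-fold apart (22.7%, against 30.8% of 16587 genes). Of these, 8 were among the 19 cohesin genes (42.1%) and 2 among the other 25 (8.0%). A mean level above 0 was found for 14 of the 19 cohesin genes and 23 of the other 25, and the part of signal in this difference was not tested. The counts rest on the brightest probes. By second probes Pds5b, Esco1 and Sgo1 changed sign, and among the other 25 Ttk (-1.04), Cdca8 (-1.37) and Spc25 (1.22) passed 2-fold in a pair. The 44 and the 19 include Rad21l, which could not be compared, while the 30.8% covers only comparable genes.

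**Figure D3:**
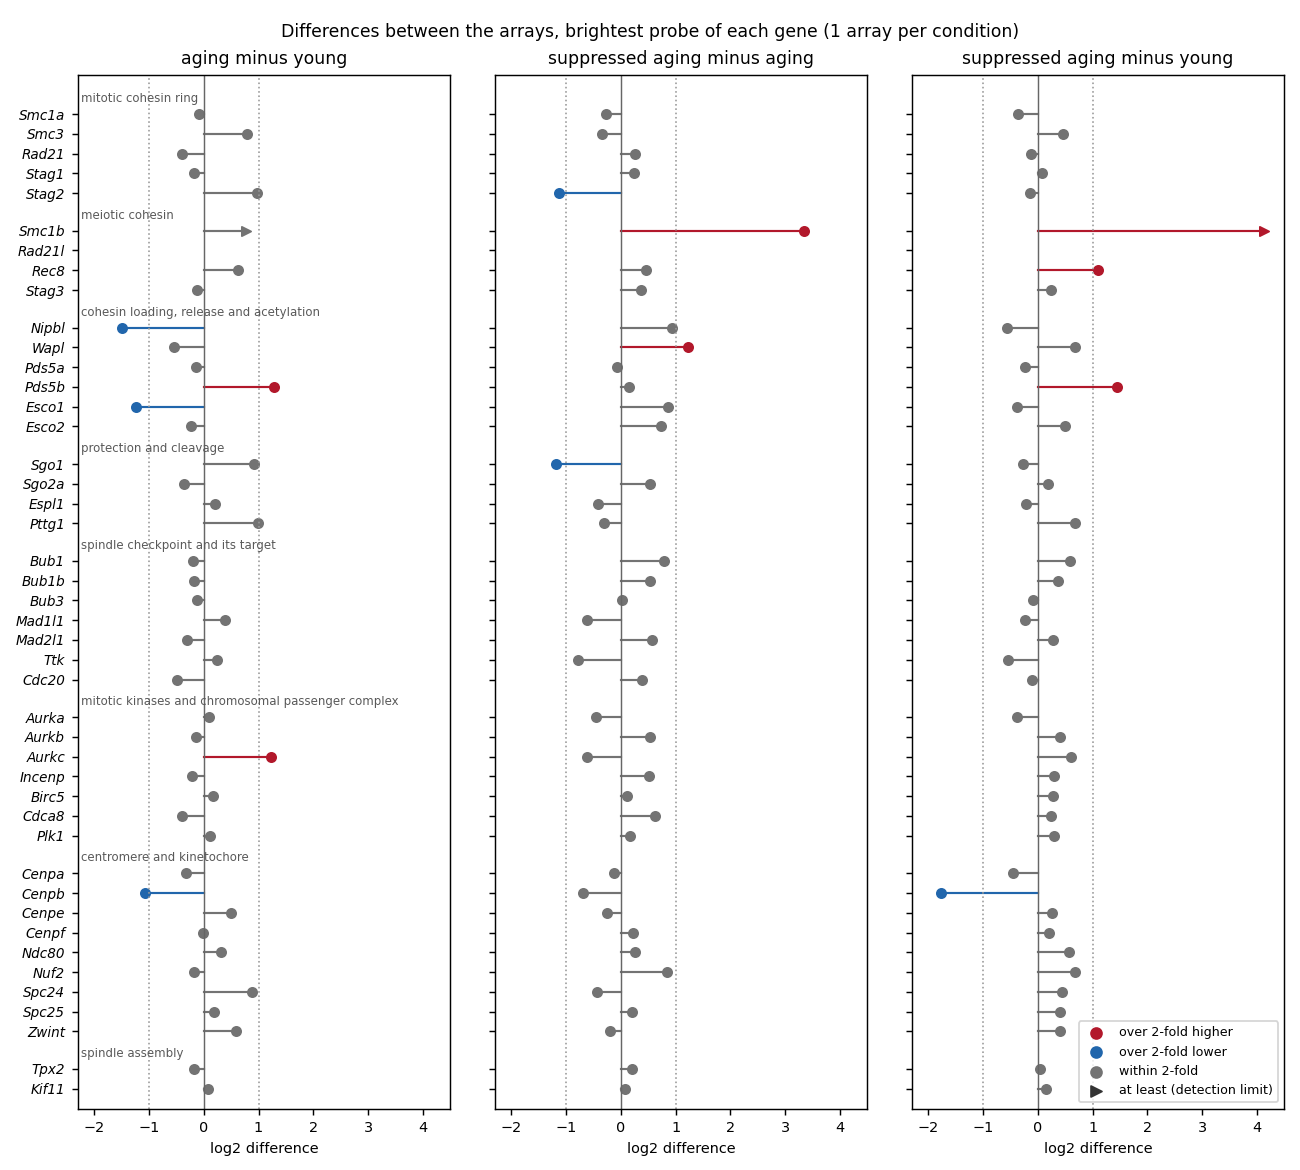
Log2 difference of each gene between arrays, with aging minus young on the left, suppressed aging minus aging in the middle and suppressed aging minus young on the right (1 array per condition, no error bars). Dotted lines mark 2-fold, red and blue points lie beyond it, and triangles are the smallest difference that the detection limit allows. Most points lie within 2-fold, and Smc1b reaches 3.35 in the middle and at least 4.13 on the right.

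The mitotic ring was present and close to level in the 3 groups, apart from Stag2. Stag2, which with Stag1 supplies the ring's outer subunit, had levels of 2.44 in young, 3.42 in aging and 2.28 in suppressed aging blastocysts. The aging array stood above the others, and Stag2 was 2.19-fold lower in suppressed aging than in aging blastocysts (log2 difference -1.13). In aging against young it was 0.98, just within 2-fold, and it passed 2-fold when arrays were centered on housekeeping genes (1.04) or taken as the authors' processed values (1.02). Stag1 read 1.71, 1.54 and 1.78 on the young, aging and suppressed aging arrays. Smc1a, the hinged subunit shared by most rings, had levels of 3.57, 3.48 and 3.21. Smc3, its partner, had levels of 2.30, 3.09 and 2.74, so that it was 0.79 higher in aging than in young blastocysts, although its second probe differed by -0.06. Rad21, the subunit that separase cleaves, read 4.53, 4.14 and 4.40. For Stag2 and Rad21 there was 1 probe each. The group medians were -0.09, -0.27 and -0.13 in the 3 pairs.

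Among the meiotic subunits, Smc1b had the largest differences after suppression, although their size depended on the background correction. Smc1b, which takes the place of Smc1a in meiotic rings, was not well above background on the young array (-5.11), lay at -3.42 on the aging array and at -0.07 on the suppressed aging array. It was 10.2-fold higher in suppressed aging than in aging blastocysts (log2 difference 3.35) and at least 17.5-fold higher than in young blastocysts (4.13). Aging against young gave at least 1.71-fold (0.78). The second Smc1b probe was below background on all 3 arrays, at -5.40, -5.81 and -4.35, so only 1 probe carries this difference. With normexp background correction the differences shrank to 1.36 and 1.47, and that of aging against young to 0.11. In the second pair Sgo1 (-1.39) then differed by more than Smc1b in size. Rec8, the meiotic counterpart of Rad21, had levels of -0.29, 0.33 and 0.80 on the young, aging and suppressed aging arrays, and was 2.13-fold higher in suppressed aging than in young blastocysts (1.09, and 0.68 with normexp correction). Its second probe was below background on all 3 arrays. Stag3, the meiotic Stag protein, read 1.77, 1.64 and 2.01 with its brightest probe, and -1.42, -2.27 and -1.75 with the other. Rad21l, another meiotic counterpart of Rad21, was not well above background on any array (-6.36, -6.50 and -4.13).

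Other germ line meiosis markers were read beside these subunits. Of 10 such markers, 7 were above background on all 3 arrays and Spo11, which starts meiotic recombination, on none. Their summed linear level was 7.07 in young, 6.57 in aging and 6.93 in suppressed aging blastocysts. Hormad1, a protein of meiotic chromosome axes, was below background in young blastocysts (-4.93) and lay at -2.08 in aging and -0.69 in suppressed aging blastocysts, the same order as Smc1b. Prm2 had this order by less (-2.48, -2.35 and -2.18). Other markers went other ways. Sycp1 was highest in aging (-2.86, -1.70 and -2.10), Tnp1 lowest in suppressed aging (-2.54, -2.97 and -3.18), and Sycp2 above background only in young (-3.74). Of 9 markers compared in aging against young, 3 were higher (33.3%, against 51.9% of all genes) and 6 lower. Sycp3, of the synaptonemal complex, stayed between 1.40 and 1.62, and Dmc1, a meiotic recombinase, between 0.78 and 1.01. The sum rests mainly on Sycp3, Dmc1 and Tnp2, so it says little about dim transcripts such as Smc1b, and the part of germ line transcripts in its difference was not tested.

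The loading, release and acetylation factors included 4 of 6 genes over 2-fold apart in any pair of arrays, against 30.8% of all genes, and 3 of the 6 had a mean level above 0. In aging against young blastocysts 5 of the 6 were lower, 2 of them over 2-fold (9.19% of all genes were over 2-fold lower). In suppressed aging against aging 5 of the 6 were higher, 1 of them over 2-fold (8.77% over 2-fold higher). Thus 16.7% and 83.3% were higher in these pairs, against 51.9% and 49.7% of all genes. Both pairs share the aging array, so the counts are not independent. In aging against young, Pds5b and Esco1 had the opposite sign by their second probes. In suppressed aging against aging, Esco1 did so too (0.86 by the brightest and -0.96 by the second probe). Nipbl, which loads cohesin onto DNA, had levels of -0.10 in young, -1.60 in aging and -0.67 in suppressed aging blastocysts. It was 2.82-fold lower in aging than in young blastocysts (-1.50), and the suppressed aging array stood between them. The second Nipbl probe read -0.81, -1.69 and -0.67, a difference of -0.88 in the same direction and within 2-fold, and normexp correction gave -0.91. After suppression, the 2 Nipbl probes were 0.93 and 1.03 above the aging array.

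Wapl, which opens the ring and releases it from chromosomes, read 1.28, 0.74 and 1.96. Its level in suppressed aging blastocysts was 2.33-fold that in aging blastocysts (1.22, and 0.97 with normexp correction), from 1 probe. Esco1 acetylates Smc3, which locks the ring. It read 1.98, 0.74 and 1.60, and was 2.37-fold lower in aging than in young blastocysts (-1.24), but its second probe went the opposite way (1.10, 1.75 and 0.79, a difference of 0.66) and the other differed by -0.69. Pds5b, a partner of Wapl on the ring, was at -2.17 in young, -0.88 in aging and -0.73 in suppressed aging blastocysts, 2.45-fold and 2.71-fold above young (1.29 and 1.44, and 0.51 and 0.56 with normexp correction). The other Pds5b probe lay at -2.23, -3.24 and -2.58, so it was -1.01 and -0.35 from young, and the direction of Pds5b depends on the probe. Pds5a, its relative, read 1.47, 1.32 and 1.24, and Esco2, the acetyltransferase of S phase, read -0.46, -0.69 and 0.03, both within 2-fold in every pair.

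Of the genes that protect and cut cohesin, Sgo1 was over 2-fold apart in 1 pair. Sgo1 (shugoshin), which shields centromeric cohesin, read 2.65 in young, 3.57 in aging and 2.38 in suppressed aging blastocysts, and was 2.28-fold lower in suppressed aging than in aging blastocysts (-1.19). Its second probe read -3.09, -2.85 and -1.89, which is 0.96 in the opposite direction. Sgo2a, which protects cohesin in meiosis, had levels of 1.65, 1.30 and 1.84, and separase (Espl1) had levels of 1.93, 2.15 and 1.72. Securin (Pttg1), the inhibitor of separase, was at 4.19 in young, 5.17 in aging and 4.87 in suppressed aging blastocysts. At 0.99 in aging against young it lay just within 2-fold, while its second probe differed by 0.31.

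No checkpoint gene was over 2-fold apart between any arrays by its brightest probe. Bub1, the kinase that marks centromeres, read 1.35, 1.15 and 1.93 on the young, aging and suppressed aging arrays, and Bub1b (BubR1), a part of the inhibitor of Cdc20, read 0.56, 0.37 and 0.91. Bub3, which brings both to the kinetochore, was at 4.31, 4.18 and 4.22. For Mad1l1, which anchors Mad2 at the kinetochore, the levels were -1.59, -1.21 and -1.83. Mad2l1 (Mad2), which binds and blocks Cdc20, read 2.42, 2.12 and 2.69. Cdc20, whose promoter is shown above, was at 5.42 in young, 4.94 in aging and 5.32 in suppressed aging blastocysts, with differences of -0.48, 0.38 and -0.10. The second Cdc20 probe read 4.84, 4.96 and 5.09, which is lowest in young. By their brightest probes, Bub1, Bub1b and Mad2l1 were lowest on the aging and highest on the suppressed aging array, each by less than 2-fold. Ttk (Mps1), the kinase that starts the checkpoint, read 0.89, 1.14 and 0.35. Its probes differed: the second read 0.90, -0.15 and -0.60, which is -1.04 in aging and -1.50 in suppressed aging against young, and the last differed by 0.28 and 0.17. The medians of the 7 genes were -0.18, 0.38 and -0.09 in the 3 pairs.

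Among the mitotic kinases and the chromosomal passenger complex, Aurkc stood out in aging blastocysts. Aurkc, the aurora kinase of oocytes and early embryos, read 1.09 in young, 2.31 in aging and 1.71 in suppressed aging blastocysts, with suppressed aging between the others. It was 2.33-fold higher in aging than in young blastocysts (1.22). The second probe read -0.18, 1.35 and 0.50, the same order, with a difference of 1.54. Aurkc was the 1 member of 21 whose 2 brightest probes were both over 2-fold apart the same way, against 2.8% of 4856 genes with 2 such probes (1.52% both higher), and it stayed over 2-fold under the other ways of processing (1.07 to 1.54). In suppressed aging against aging its probes differed by -0.61 and -0.86. Of 7 oocyte markers that could be compared in aging against young, 4 were higher (57.1%, against 51.9% of all genes) and 3 lower. The 4 higher ones were all over 2-fold higher (9.86% of all genes), 2 of them over 5-fold apart (2.59%), and the 3 lower ones were within 2-fold. All 7 had mean levels below 0, where 20.9% to 32.3% of all genes were over 2-fold apart, depending on level. Zp3, of the egg coat, lay at -3.05, -0.97 and -1.51 on the young, aging and suppressed aging arrays. Zp2, also of the egg coat, lay at -3.29, -0.94 and -4.12 (not well above background). Bmp15, an oocyte growth factor, lay at -6.17 (not well above background), -1.25 and -3.45. Npm2 was highest on the suppressed aging array (-5.36, not well above background, -2.91 and -2.09). Padi6 read -0.44, -0.50 and -0.21, and in aging against young Gdf9 differed by -0.06 and Nlrp5 by -0.30. Above background were 7 of the 12 oocyte markers on the aging array, against 5 on each of the others. The part of residual oocyte transcripts in the Aurkc difference was not tested.

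The relatives of Aurkc differed less. Aurka, the kinase of spindle poles, had levels of 5.23, 5.32 and 4.85, and Aurkb, the catalytic subunit of the passenger complex in most cells, had levels of 1.30, 1.16 and 1.69. Incenp, its scaffold, read 3.37, 3.15 and 3.66. Birc5 (survivin), which takes the complex to centromeres, read 7.41, 7.57 and 7.68, and its second probe differed by at most 0.14 between any 2 arrays. Plk1 (polo-like kinase), with the promoter shown above, read 2.48, 2.60 and 2.77. Cdca8 (borealin), also of the complex, read 5.53, 5.14 and 5.77. Its second probe read 4.32, 2.94 and 3.20, which is -1.37 in aging and -1.11 in suppressed aging against young, where the brightest probe gave -0.40 and 0.24.

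Cenpb was the 1 of 9 centromere and kinetochore genes over 2-fold apart. Cenpb, a protein that binds centromeric satellite DNA, read -1.08 in young, -2.16 in aging and -2.85 in suppressed aging blastocysts. It was 2.11-fold lower in aging (-1.08) and 3.41-fold lower in suppressed aging (-1.77) than in young blastocysts. It has 1 probe, and with normexp correction the differences were -0.53 and -0.74. Cenpa, the histone that marks the centromere, read 3.25, 2.93 and 2.79. For Cenpe, a kinetochore motor, the levels were 2.86, 3.36 and 3.11, and for Cenpf, a protein of the outer kinetochore, 1.89, 1.87 and 2.10. The genes of the Ndc80 complex, which grips microtubules, were within 2-fold. Ndc80 read 1.82, 2.13 and 2.39, Nuf2 read 1.23, 1.05 and 1.89, Spc24 read 1.77, 2.65 and 2.21, and Spc25 read 2.82, 3.01 and 3.21. All 4 were higher in suppressed aging than in young blastocysts, by 0.57, 0.67, 0.44 and 0.40, in a pair where 52.4% of all genes were higher. These differences were of the order of the median gap between 2 probes of a gene (0.48 over all genes in this pair). In aging against young, Nuf2 differed by -0.18 and the others by 0.31, 0.88 and 0.19. The second Spc25 probe read 1.68, 0.82 and 2.04, so it was 1.22 higher in suppressed aging than in aging blastocysts where the brightest gave 0.20. Zwint, which recruits checkpoint proteins to the kinetochore, read 4.92, 5.50 and 5.32 on the young, aging and suppressed aging arrays. The spindle genes Tpx2, which activates Aurka, and Kif11, the motor that pushes spindle poles apart, differed by at most 0.21 in size between any arrays (3.30, 3.13 and 3.33 for Tpx2, and 1.53, 1.59 and 1.67 for Kif11).

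How far 1 probe speaks for its gene was checked on the 21 members whose 2 brightest probes were above background on both arrays of a pair. The 2 probes had the same sign for 12 of 21 members in aging against young, 13 in suppressed aging against aging and 11 in suppressed aging against young. Over all genes with 2 such probes, the sign was the same in 56.7%, 54.9% and 56.0%. The median gap between the 2 probes of a member was 0.61, 0.37 and 0.40, against 0.55, 0.53 and 0.48 over all genes. Differences under this size were therefore of the order of the disagreement between probes of 1 gene. In suppressed aging against aging and against young no member had both probes over 2-fold the same way (2.14% and 1.96% of all genes).

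**Figure D4:**
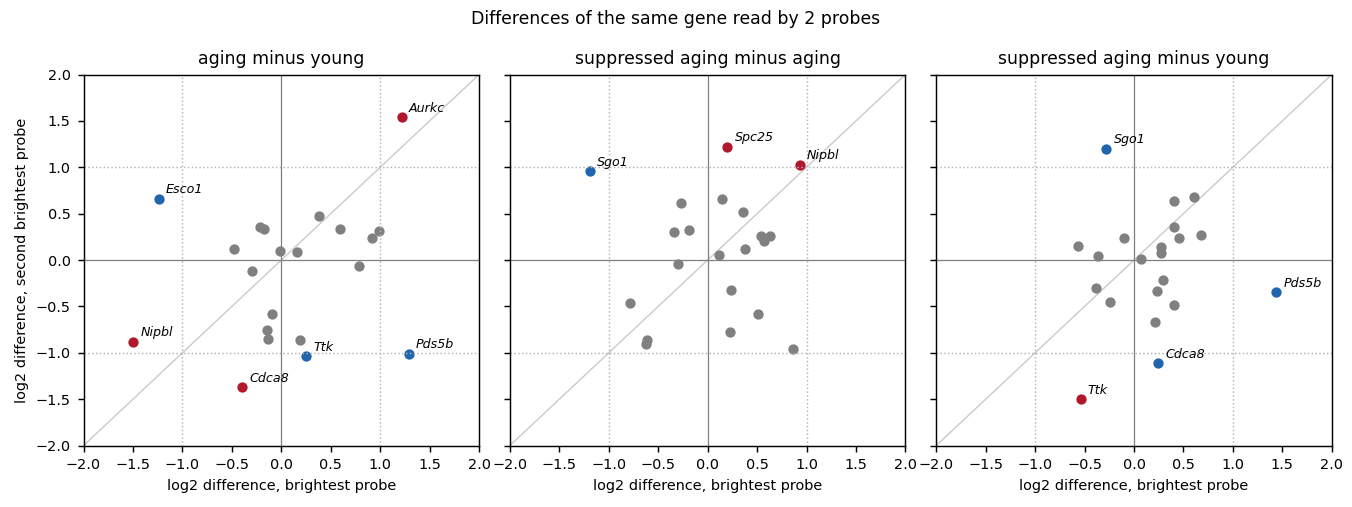
Log2 difference by the brightest probe (horizontal axis) and by the second brightest probe (vertical axis) of the same gene, for 21 genes and each pair of arrays. Genes over 2-fold apart by either probe are named, in red where the probes have the same sign and in blue where they do not, and dotted lines mark 2-fold. Aurkc lies beyond 2-fold on both axes in aging minus young (1.22 and 1.54), and Pds5b, Esco1 and Sgo1 lie where the probes oppose each other.

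A wider list of 78 other genes of chromosome segregation was read the same way, and all 78 were above background on all 3 arrays. In aging against young, 9 of the 78 (11.5%) were over 2-fold apart, against 19.0% of all named genes. Of these, 4 were higher and 5 lower (9.86% and 9.19% of all genes). The highest differences were those of Cenpm (1.49) and Ska1 (1.16), both of the kinetochore, and the lowest those of Cenpq (-1.44) and Cenpl (-1.40), of the inner kinetochore. In suppressed aging against aging 14 (17.9%) were over 2-fold apart, near the 17.3% of all genes. Of these, 11 were higher and 3 lower (8.77% and 8.5% of all genes). Hdac8, the deacetylase that recycles Smc3, lay at -3.20 in young, -3.25 in aging and -0.72 in suppressed aging blastocysts, a difference of 2.53 after suppression. Anapc1, a subunit of the anaphase-promoting complex, read 1.55, 1.95 and 4.43, a difference of 2.48. The lowest were Zw10 (-1.24), of the outer kinetochore, and Anln (-1.09), of the cleavage furrow. In suppressed aging against young 8 (10.3%) were over 2-fold apart, against 16.3% of all genes. Of these, 6 were higher and 2 lower (8.67% and 7.64% of all genes). Anapc1 (2.89) and Hdac8 (2.49) were again highest, and Haspin (-1.78), a histone kinase of mitosis, and Kif18a (-1.11), a spindle motor, were lowest. The medians of the 78 genes were 0.03, 0.00 and 0.04. A mean level above 0 was found for 61 of the 78. Of these 61, 4 (6.56%), 9 (14.8%) and 5 (8.2%) were over 2-fold apart in the 3 pairs, against 9.48%, 7.64% and 8.49% of all genes with such a level. The share was thus higher than that of all such genes in suppressed aging against aging, lower in aging against young and close to it in the last pair.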

How the data were processed

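For 3 Agilent arrays (1 dye, Cy3), the authors deposited spot intensity values from the scanner, background-subtracted and detrended within each array by Agilent Feature Extraction 12.0.3.1, as the submitters' processing notes and the file headers state, with no normalization between arrays. Per the study's methods, RNA was amplified by global PCR, while the labels name a cRNA labeling kit, and which was used could not be settled. The authors' table of 30763 processed intensity values equals the scanner intensity times 1 factor per array (3.46, 3.34 and 3.96), within 1% for every row, and covers all 71 member probes. Column medians were 174.9, 186.1 and 173.5 for the young, aging and suppressed aging arrays.

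Here, control spots and outlier spots (100, 85 and 118 per array) were left out, log2 intensities of spots of the same probe were averaged, and each array's 75th percentile was taken off. No spot was saturated. Each gene was read by its probe with the highest mean level. Per the labels, each group was 1 array, so differences were described without tests, beside the same 2-fold and 5-fold counts over all named genes. The members and lists were chosen with earlier results of these data known. Values are given for members over 2-fold apart and up to 4 others per role group in list order. Mad2l1, Ttk, Cdc20, Cdca8, Plk1, Nuf2, Spc24, Spc25 and Zwint fall outside that rule and were named after their values were seen, as were the marker genes and the promoters shown. Of the wider list, the 2 highest and 2 lowest genes per pair are named. Alternatives were normexp correction (limma 3.58.1, offset 50), quantile normalization, 2 other centerings, the authors' values, outlier spots kept, other probes, other filters and thresholds of 1.5-fold and 5-fold. The calling of differences was tested on simulated data. Python 3.11.15, NumPy 2.4.6, pandas 2.3.3, Matplotlib 3.10.9 and R 4.3.3 were used. The array design names mm9, so the GRCm38.p6 gene table served for names only.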

Additional observations from a re-analysis of the deposited data

How the results depend on the processing

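No paired analysis was possible because there was no second array of any group, and no array could be left out. Pairs of arrays are in the order used above. Normexp correction gave 2 members over 2-fold in the first pair and 1 in the last, and medians of 0.09 and 0.15 in the second and last. Its offset shrinks differences of dim probes. The authors' values gave a median of 0.11 in the second pair. The mean over probes gave 3 members in the first pair. The second brightest probe, for 21 members, gave medians of 0.09 and 0.04 in the first and last pair, 2 members over 2-fold in the second, and 21 members above background on all 3 arrays. At 5-fold the counts were 0, 1 and 1, and at 1.5-fold 13, 14 and 8. The share of all named genes was not counted at 1.5-fold or under the other settings. These counts therefore describe dependence on processing only. Of the differences over 2-fold, 4 changed sign when read by the second probe: Pds5b to -1.01 in aging and -0.35 in suppressed aging against young, Esco1 to 0.66 in aging against young, and Sgo1 to 0.96 in suppressed aging against aging. Over all differences, 9, 8 and 10 of the 21 members had opposite signs by the 2 probes. The cause was not tested.

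Higher and lower counts were 2 and 3, 2 and 2, and 3 and 1 in the 3 pairs. They became 1 and 1, 1 and 2, and 1 and 0 with normexp, and 1 and 3, 2 and 0, and 1 and 2 with the second probe. The mean over probes gave 2 and 1 in the second pair. At 1.5-fold they were 10 and 3, 8 and 6, and 7 and 1, with no share of all genes counted at that limit. Housekeeping centering and the authors' values gave 4 and 3 in the first pair, and quantile normalization 3 and 3. Leaving dim probes unfiltered gave 3 and 3 in the first pair and 3 and 2 in the second, and shifted the median of all genes by -0.14 and 0.14 there. Of 122 alternative values of the 13 differences over 2-fold, 106 stayed over 2-fold, 12 fell under it in the same direction and 4 changed sign. Some of the 122 could not change, so they do not measure robustness. For genes above background on both arrays the other filters return the main value. The mean over probes does so for genes with 1 probe above background. Stag2, Smc1b and Aurkc stayed over 2-fold in each alternative that gave a value, but no second probe could be read for Stag2 or Smc1b. Averaged over probes, Pds5b gave 0.14 in the first pair and 0.54 in the last, Esco1 -0.42 in the first and Sgo1 -0.11 in the second. Depth is limited by signal over background, which leaves Rad21l unmeasured and Smc1b a bound in young blastocysts.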

Other observations

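Of 15 subunits of the anaphase-promoting complex, none was over 2-fold apart in aging against young blastocysts (background 19.0%). In each of the other pairs 2 (13.3%) were (background 17.3% and 16.3%), both higher in suppressed aging blastocysts, with Anapc1 over 5-fold. All 15 had a mean level above 0, and of all genes with such a level 9.48%, 7.64% and 8.49% were over 2-fold apart in the 3 pairs. Of 12 replication genes such as the Mcm helicase subunits, which act in S phase, none was over 2-fold apart in any pair. All 12 had a mean level above 0, and a count of none among 12 genes is close to the shares of 9.48%, 7.64% and 8.49%. Their medians were -0.04, 0.23 and -0.00 in the 3 pairs of arrays, in the order used above. All 8 condensin genes were above background on all 3 arrays and had a mean level above 0. In aging against young blastocysts 6 of the 8 were higher, against 51.9% of all genes, and 2 were lower. Smc2 (1.02) was the 1 of 8 over 2-fold apart, against 9.48% of genes with such a level. Apart from Smc2 and Ncapd2 (0.78), the higher genes differed by 0.17 to 0.52. Those values lay under the median gap of 0.55 between 2 probes of a gene over all genes. Of 19 inner kinetochore and centromere loading genes, 3 (15.8%) were over 2-fold apart in aging against young, against 19.0% of all genes. In suppressed aging against aging 5 (26.3%, against 17.3%) were, 4 of them higher, and in suppressed aging against young 1 (5.26%, against 16.3%). Among the 10 with a mean level above 0 the counts were 0, 3 (30.0%) and 1 (10.0%), against 9.48%, 7.64% and 8.49% of such genes.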
